A study of Mus musculus with 14 samples.

Results

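The circadian clock genes described here are the period genes Per1, Per2 and Per3, the cryptochromes Cry1 and Cry2, the PAR bZIP output genes Dbp, Tef and Hlf, and the REV-ERB receptor genes Nr1d1 and Nr1d2. The 10 members were taken by symbol from the read count table of sorted oligodendrocytes and from the UMI tables of the nucleus accumbens, out of 29239 symbols with a read in the sorted cells. All samples came from male C57BL/6 mice. Sorted oligodendrocytes, the cells that make myelin, came from whole brains of mice of 70 days, 3 mice given morphine sulfate and 3 given saline (mock), by injection into the peritoneum, and their amplified total RNA was sequenced in bulk. Single cells of the nucleus accumbens, a reward region of the ventral striatum, were profiled by Drop-seq in 4 morphine and 4 mock pools of 2 mice each; replicates 3 and 4 of each group were 78 to 82 days old and replicates 1 and 2 were 37 to 45 days old. The labels give no dose, no interval between injection and collection, and no time of day at which tissue was taken.

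In the mammalian clock, the activators CLOCK and BMAL1 (the product of Arntl) bind E-box sequences and switch on the Per and Cry genes, whose proteins gather and shut their own transcription down. The REV-ERB receptors, made by Nr1d1 and Nr1d2, repress Arntl and form an interlocking loop with the ROR receptors. DBP, TEF and HLF carry the rhythm to output genes through D-box sequences. Levels of most of these transcripts move with the time of day, and Per1 is also switched on directly by glucocorticoids and by cyclic AMP signalling.

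Reads in genes numbered 14989118 to 23456702 per sorted library. The accumbens pools held 2745 to 5700 cells and 6703052 to 22988184 UMIs, each UMI being a single captured transcript. The summed level of the 10 oligodendrocyte markers was 64400 to 67000 CPM in sorted morphine libraries and 61100 to 64400 CPM in sorted mock libraries, where CPM is counts per 1000000 counts in genes. Of the marker lists of other cells and stages, 4 had summed levels that did not overlap between the groups. The 9 endothelial markers summed to 44.6 to 61.3 CPM in morphine and 66.0 to 71.1 CPM in mock libraries, with 4 of 9 called lower, and the 7 excitatory neuron markers to 8.29 to 8.52 CPM in morphine and 9.47 to 14.3 CPM in mock libraries, with 0 of 6 tested called. The summed markers of earlier oligodendrocyte stages were higher in every morphine library than in any mock library, but single markers went both ways. Of the 8 newly formed markers, 5 were higher in morphine and 2 were called. Among the 5 precursor markers tested, 4 were higher, 1 of them called, and Matn4 was lower (log2 -0.67, adjusted p = 0.138). The 8 markers of newly formed oligodendrocytes summed to 278 to 301 CPM in morphine and 207 to 252 CPM in mock libraries, and Fyn and Itpr2 of these rose (log2 0.97 and 0.96, adjusted p = 7.42e-10 and 6.22e-08). The 7 oligodendrocyte precursor markers, of which Lhfpl3 was at 0, summed to 20.1 to 23.5 CPM in morphine and 17.6 to 17.9 CPM in mock libraries, and Tnr rose (log2 0.65, adjusted p = 0.00351). The sums of choroid plexus, astrocyte and microglia markers overlapped between the groups; those of choroid plexus were 255 to 704 CPM in morphine and 611 to 671 CPM in mock libraries, with 2 of 5 called lower. The part of these differences in the members' results was not tested. In the accumbens, the median mitochondrial share of a cell's UMIs was 4.8% to 7.0% in morphine pools and 3.01% to 4.61% in mock pools.

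The promoters of 5 of the 6 members called changed in the sorted cells, all but Per2, are printed first. They show where perfect E-boxes lie close to the start sites. Each runs from 250 bases before to 50 bases after a start site, 5′ to 3′ on the gene's strand, from RefSeq on GRCm38.p6, in lower case. Capitals mark the E-box CACGTG.
Per1, start site 1 (chr11:69098699-69098998, plus strand): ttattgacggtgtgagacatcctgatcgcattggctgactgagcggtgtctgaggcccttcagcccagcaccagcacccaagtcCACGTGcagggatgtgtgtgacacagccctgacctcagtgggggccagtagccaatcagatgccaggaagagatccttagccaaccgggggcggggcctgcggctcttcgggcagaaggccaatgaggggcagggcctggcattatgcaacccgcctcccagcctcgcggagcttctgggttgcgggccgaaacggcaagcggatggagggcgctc
Per1, start site 2 (chr11:69099902-69100201, plus strand): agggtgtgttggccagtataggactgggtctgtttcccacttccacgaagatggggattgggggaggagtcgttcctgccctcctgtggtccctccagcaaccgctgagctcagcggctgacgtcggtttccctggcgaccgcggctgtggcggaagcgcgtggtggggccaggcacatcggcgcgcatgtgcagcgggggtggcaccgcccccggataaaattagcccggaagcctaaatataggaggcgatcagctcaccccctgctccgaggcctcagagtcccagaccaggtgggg
Cry2 (chr2:92434020-92434319, minus strand): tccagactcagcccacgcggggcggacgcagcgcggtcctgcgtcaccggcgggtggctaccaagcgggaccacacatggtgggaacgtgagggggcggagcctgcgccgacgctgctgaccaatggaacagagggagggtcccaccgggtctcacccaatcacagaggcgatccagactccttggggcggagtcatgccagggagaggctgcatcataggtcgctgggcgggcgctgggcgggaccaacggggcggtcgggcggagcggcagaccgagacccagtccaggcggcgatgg
Tef, start site 1 (chr15:81802423-81802722, plus strand): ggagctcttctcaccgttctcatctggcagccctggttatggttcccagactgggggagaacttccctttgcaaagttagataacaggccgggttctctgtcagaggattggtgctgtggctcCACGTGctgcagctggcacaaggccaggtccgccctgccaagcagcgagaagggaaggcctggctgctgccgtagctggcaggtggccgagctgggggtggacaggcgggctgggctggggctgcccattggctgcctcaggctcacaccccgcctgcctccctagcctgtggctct
Tef, start site 2 (chr15:81811164-81811463, plus strand): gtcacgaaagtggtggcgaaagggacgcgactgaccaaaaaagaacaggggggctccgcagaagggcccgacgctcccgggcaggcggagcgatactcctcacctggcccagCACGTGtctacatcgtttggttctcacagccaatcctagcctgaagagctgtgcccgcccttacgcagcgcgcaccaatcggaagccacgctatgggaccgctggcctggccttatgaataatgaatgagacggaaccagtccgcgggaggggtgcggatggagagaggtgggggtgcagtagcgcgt
Nr1d1 (chr11:98775328-98775627, minus strand): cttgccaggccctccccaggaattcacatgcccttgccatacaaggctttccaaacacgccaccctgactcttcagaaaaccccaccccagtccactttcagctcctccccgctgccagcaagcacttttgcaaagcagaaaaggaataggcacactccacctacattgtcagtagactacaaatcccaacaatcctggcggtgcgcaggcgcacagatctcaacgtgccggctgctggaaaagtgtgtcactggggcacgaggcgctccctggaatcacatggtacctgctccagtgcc
Nr1d2 (chr14:18239057-18239356, minus strand): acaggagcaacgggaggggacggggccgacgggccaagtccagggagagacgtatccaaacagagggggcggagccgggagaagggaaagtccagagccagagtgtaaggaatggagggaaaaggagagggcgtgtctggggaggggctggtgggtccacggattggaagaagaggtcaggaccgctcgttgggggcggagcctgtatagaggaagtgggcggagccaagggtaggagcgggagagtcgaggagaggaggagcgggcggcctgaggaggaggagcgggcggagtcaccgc

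A perfect E-box stood at 166 bases before Per1 start site 1, and at 127 and 138 bases before Tef start sites 1 and 2. None was found in the windows of Cry2, Nr1d1 and Nr1d2, or at Per1 start site 2. Among the other members, Cry1 had an E-box 60 bases before its start, Per3 had the D-box TTATGTAA at 205 and at 158 bases before its start, and Hlf had the cyclic AMP response element TGACGTCA 9 bases before its start. E-boxes were present in 7.15% of all 32851 promoter windows of this length, D-boxes (TTATGTAA or TTACGTAA) in 1.06% and TGACGTCA in 1.79%, searched on both strands. For the REV-ERB and ROR element, only TAGGTCA preceded by AAN or ATN was searched for, which 0.371% of windows held. For the glucocorticoid receptor element, only GNACA, any 3 bases, then TGTNC was searched for, which 0.475% held. Neither of these exact patterns was found in any of the 11 windows of the 9 members other than Per2. A match of letters is a description and not evidence of binding. Sites with other letters, or outside these windows, were not searched for, so no match does not show that a gene lacks them.

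In sorted oligodendrocytes, 6 of the 10 members changed after morphine, where 14.8% of all 15750 genes tested were called. The members were chosen with earlier results of these data known, so this count is a description and not a test. Per1, Tef, Cry2 and Per2 rose, against a background of 8.1% of genes called higher. Nr1d1 and Nr1d2 fell, against 6.68% called lower. Per3, Cry1, Dbp and Hlf did not pass. A call is an adjusted p under 0.05 in the quasi-likelihood test of edgeR, with adjustment over all genes tested, and all 10 members passed the filter on low counts. The morphine and mock libraries did not overlap for 6 members (Per1, Per2, Per3, Cry2, Tef and Nr1d2), where 29.1% of all genes tested did not overlap.

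**Figure D1:**
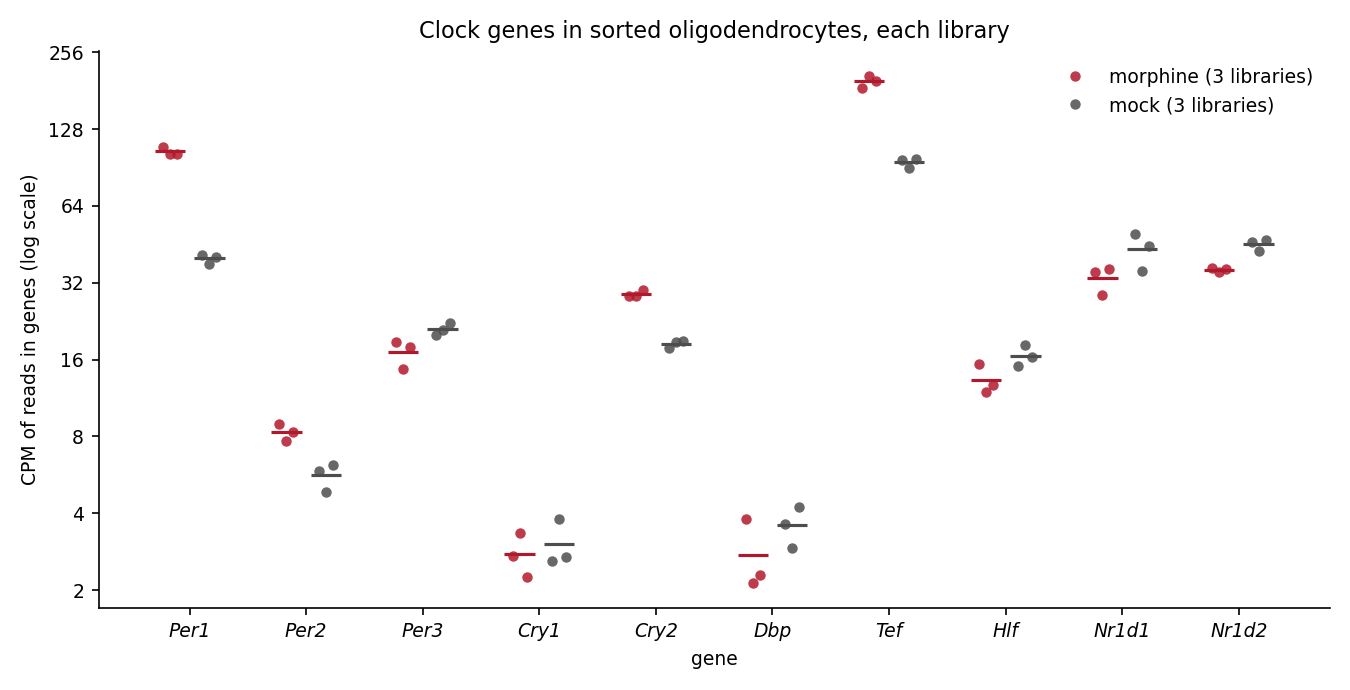
Level of each of the 10 genes in every library of sorted oligodendrocytes, in CPM on a log2-spaced axis; points are libraries (3 morphine, 3 mock) and bars are group means. Per1 and Tef stand furthest apart between the groups, at 105 and 197 CPM in morphine against 39.8 and 95.1 CPM in mock libraries.

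Among the period genes, whose proteins are the negative arm of the clock with the cryptochromes, Per1 had 109, 102 and 103 CPM in morphine libraries, against 41.3, 38.0 and 40.2 CPM in mock libraries. The spread within each group was small beside the gap between them. Per1 averaged 105 ± 3.82 CPM in morphine and 39.8 ± 1.69 CPM in mock libraries (SD, n = 3 each), a 2.62-fold rise (log2 1.39, SE 0.0652, adjusted p = 1.57e-12). Per2, a paralog, had 8.96, 7.69 and 8.34 CPM in morphine, against 5.83, 4.84 and 6.20 CPM in mock libraries. Every morphine library was above every mock library, and Per2 rose 1.47-fold (log2 0.56, SE 0.142, adjusted p = 0.00867); without morphine library 1 the adjusted p was 0.0510.

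Per3, the third paralog, was not called. It had 18.7, 14.7 and 17.9 CPM in morphine, against 19.96, 20.8 and 22.3 CPM in mock libraries, so that all 3 morphine libraries were below all 3 mock libraries. Its difference did not pass (log2 -0.30, SE 0.101, adjusted p = 0.0543); without mock library 2 it did, with an adjusted p of 0.0467.

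Of the cryptochromes, which complete the repressor complex, Cry2 was called and Cry1 was not. Cry2 had 28.3, 28.4 and 30.1 CPM in morphine, against 17.8, 18.8 and 18.9 CPM in mock libraries. The groups were well apart, and Cry2 rose 1.57-fold (log2 0.65, SE 0.0828, adjusted p = 5.22e-06). Cry1 was near the bottom of the members' range, with 2.71, 3.35 and 2.26 CPM in morphine and 2.61, 3.78 and 2.70 CPM in mock libraries. Its groups overlapped and it was not called (log2 -0.12, 95% interval -0.62 to 0.37, adjusted p = 0.818).

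Tef, a PAR bZIP activator, had 186, 206 and 198 CPM in morphine, against 97.0, 90.4 and 98.0 CPM in mock libraries. It rose 2.07-fold, to 197 ± 10.5 CPM in morphine libraries, against 95.1 ± 4.14 CPM in mock libraries (SD, n = 3 each; log2 1.05, SE 0.0607, adjusted p = 4.25e-11). Its paralogs were not called. Dbp, the best known of the family as a clock output, had 3.80, 2.14 and 2.30 CPM in morphine and 3.64, 2.92 and 4.24 CPM in mock libraries, which overlapped (log2 -0.41, 95% interval -0.91 to 0.10, adjusted p = 0.328). Hlf had 15.4, 11.9 and 12.7 CPM in morphine and 15.2, 18.2 and 16.4 CPM in mock libraries. Morphine library 1 reached into the mock range, and Hlf was not called (log2 -0.31, SE 0.113, adjusted p = 0.0778); without that library the log2 difference was -0.42 and the adjusted p 0.0275.

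The REV-ERB genes, which encode haem-binding repressors, were both lower after morphine. Nr1d2 had 36.6, 35.2 and 36.3 CPM in morphine, against 46.3, 42.6 and 47.0 CPM in mock libraries. These did not overlap, and Nr1d2 fell to 36.0 ± 0.721 CPM in morphine libraries, against 45.3 ± 2.39 CPM in mock libraries (SD, n = 3 each; log2 -0.33, SE 0.0712, adjusted p = 0.00197). Nr1d1 had 35.3, 28.6 and 36.1 CPM in morphine, against 49.5, 35.7 and 44.6 CPM in mock libraries. It fell (log2 -0.38, SE 0.104, adjusted p = 0.0144), although mock library 2 lay within the morphine range. The Nr1d1 call was lost with DESeq2 (adjusted p = 0.0579) and without morphine library 2 (0.166), mock library 1 (0.181) or mock library 3 (0.0643). In the authors' deposited table Nr1d1 had an adjusted p of 0.0572 and the other 5 members called here were below 0.05.

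Levels can be compared between genes only per length. Per kilobase of exon, Tef had the highest level in morphine libraries, at 25.0 CPM per kb, followed by Per1 at 18.6, Nr1d1 at 10.8 and Nr1d2 at 6.66 CPM per kb. In mock libraries the mean of Nr1d1 was highest, at 14.1 ± 2.28 CPM per kb, followed by Tef at 12.1 ± 0.526 CPM per kb (SD, n = 3 each). Nr1d2 came next at 8.37 and Per1 at 7.07 CPM per kb. Cry2 followed at 4.57 CPM per kb in morphine and 2.93 CPM per kb in mock libraries, and Hlf, Per3, Per2, Dbp and Cry1 were between 0.830 and 2.48 CPM per kb in both groups. The order of the means of the first 3 genes thus differed between the groups. In mock libraries the gap between Nr1d1 and Tef was smaller than the SD of Nr1d1.

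Some members share exons with genes on the opposite strand, and whether the counting used strand is not given in the sources used here. Tef (chromosome 15, 81802421 to 81826863, GENCODE vM21 on GRCm38) shares 193 exon bases with the antisense gene Gm17597, which itself had a log2 difference of 1.97 (adjusted p = 0.00108). Nr1d1 (chromosome 11, 98767932 to 98775333) shares 263 exon bases with Thra, a thyroid hormone receptor gene with a log2 difference of 0.10 (adjusted p = 0.372). Cry2 (chromosome 2, 92403646 to 92434043) shares 295 bases with D930015M05Rik, at log2 0.28 (adjusted p = 0.711), and Dbp (chromosome 7, 45705088 to 45710203) shares 539 bases with Sphk2, at log2 0.02 (adjusted p = 0.932). The remaining members, among them Per1 (chromosome 11, 69095217 to 69109960), have no such overlap.

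Other genes of the clock were also tested in the sorted cells, where 8.1% of all genes rose and 6.68% fell; each list below is small, and its count is a description. Of 4 clock activators, 1 fell and 0 rose, against a median log2 difference of -0.27 for the list and -0.021 for all genes tested. The one that fell was Clock, at 94.1 ± 1.09 CPM in morphine and 117 ± 3.91 CPM in mock libraries (SD, n = 3 each; log2 -0.32, adjusted p = 0.000352), while Arntl was at 7.74 CPM in morphine and 8.36 CPM in mock libraries (adjusted p = 0.668). Of the 6 tested ROR receptors and feedback repressors, 1 rose and 1 fell. Nfil3, which competes with the PAR bZIP proteins for D-boxes, rose to 14.4 ± 2.39 CPM in morphine libraries, against 8.41 ± 0.606 CPM in mock libraries (log2 0.77, adjusted p = 0.000141). Bhlhe41, an E-box repressor, fell to 16.8 ± 1.25 CPM in morphine libraries, against 23.6 ± 1.20 CPM in mock libraries (log2 -0.49, adjusted p = 0.000541).

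Of 10 kinases, ligases and partners of clock proteins, 1 rose and 0 fell, beside 8.1% and 6.68% of all genes. The one that rose was Usp2. This deubiquitinase gene is itself clock-controlled, and it rose to 79.5 ± 4.49 CPM in morphine libraries, against 30.6 ± 1.17 CPM in mock libraries (log2 1.37, adjusted p = 5.39e-12). The kinase genes Csnk1d and Csnk1e, which time the decay of PER proteins, were not called (log2 -0.03 and 0.06). The list's median log2 difference was 0.05.

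Of 9 tested clock outputs and PAR bZIP targets, 4 rose and 1 fell, beside 8.1% of all genes that rose and 6.68% that fell, with a median log2 difference of 0.13 for the list and -0.021 for all genes tested. Pdxk, the pyridoxal kinase gene known as a PAR bZIP target in brain, rose to 740 ± 40.9 CPM in morphine libraries, against 119 ± 7.71 CPM in mock libraries (log2 2.63, adjusted p = 3.74e-17). Klf9, a Krüppel-like factor gene driven both by the clock and by glucocorticoids, rose to 252 ± 7.37 CPM in morphine libraries, against 77.7 ± 14.4 CPM in mock libraries (log2 1.69, adjusted p = 1.16e-11). Tspan4 rose to 5.28 ± 0.481 CPM in morphine libraries, against 1.36 ± 0.450 CPM in mock libraries (log2 1.98, adjusted p = 2.78e-06). Por, encoding the cytochrome P450 reductase, was the other that rose (log2 0.31, adjusted p = 0.0103), and Dtx4 fell (log2 -0.38, adjusted p = 0.0184).

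Because Per1 is a known glucocorticoid target, 8 glucocorticoid-induced genes were set beside it. All 8 rose, beside 8.1% of all genes, with a median log2 difference of 2.76 beside -0.021 for all genes tested. These 8 genes were chosen with earlier results of these data known, so the count is a description and not a test. Examples were Fkbp5, a co-chaperone of the glucocorticoid receptor, at log2 3.48 (adjusted p = 2.81e-16), and Sgk1, a kinase, at log2 3.98 (adjusted p = 1.51e-19). The largest of the 8 was Cdkn1a, a cell cycle inhibitor, at log2 5.48 (adjusted p = 1.51e-19). Immediate early genes, some of which respond to cyclic AMP as Per1 does, gave 1 riser and 2 fallers of 7 tested, beside 8.1% and 6.68% of all genes. Arc fell to 26.0 ± 1.62 CPM in morphine libraries, against 60.9 ± 6.19 CPM in mock libraries (log2 -1.23, adjusted p = 3.7e-10), Jun fell (log2 -0.58, adjusted p = 1.63e-05) and Nr4a1 rose (log2 0.74, adjusted p = 0.00951). Whether the members' differences go with those of these genes was not tested.

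In the accumbens, clusters whose defining genes matched oligodendrocyte markers held 3853 cells, 394, 729, 396 and 487 in morphine pools 1 to 4 and 216, 857, 307 and 467 in mock pools 1 to 4. No member took part in the clustering. None of the 9 members tested in this oligodendrocyte class was called (smallest adjusted p 0.999 in edgeR; 0 at an unadjusted p under 0.05; 0 with DESeq2), in a comparison where 0% of 8712 genes were called and 4.25% had an unadjusted p under 0.05. The count over all genes depended on the model: 30 genes were called with the replicate number as a block, 28 without the filter on low counts, 7 with classes from marker scores, and 5 with age as a covariate or with DESeq2; no member was among them. Per2 did not pass the filter on low counts, with 3, 10, 3 and 6 UMIs in morphine pools and 1, 8, 0 and 4 UMIs in mock pools. The class joined 3 clusters. The one led by Klk6 and Apod, named from a single oligodendrocyte marker among its leading genes, made up 15.3% of the class in morphine pools and 20.1% in mock pools, and the one led by Mbp and Ptgds made up 10.7% of the class in morphine pools and 5.14% in mock pools.

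Per1 in this class had 29.3, 22.4, 22.3 and 22.5 CPM in morphine pools, against 24.4, 23.3, 18.4 and 19.3 CPM in mock pools, from 12 to 45 UMIs per pool. Morphine pool 1 was above all others, and the remaining pools overlapped. The log2 difference of Per1 was 0.16, with a 95% interval of -0.34 to 0.66. The upper end, 0.66, lies below the interval of 1.25 to 1.53 found in the sorted cells; the 2 assays differ in brain region, RNA capture and age of the mice, and the difference between them was not tested.

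Tef in the same class had 149, 105, 129 and 121 CPM in morphine pools, against 125, 97.9, 87.2 and 124 CPM in mock pools. The means, 126 ± 18.1 CPM in morphine and 109 ± 18.9 CPM in mock pools (SD, n = 4 each), differed by less than the spread between pools, with a log2 difference of 0.21 and a 95% interval of -0.18 to 0.60. For Tef, too, the interval ends below that of the sorted cells, 0.92 to 1.17. Cry2 had 25.5, 27.8, 14.9 and 15.6 CPM in morphine pools, against 22.9, 18.2, 12.2 and 22.0 CPM in mock pools. Its interval of -0.48 to 0.82 reaches past the sorted value of 0.65, so a rise of that size is neither shown nor excluded.

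The REV-ERB genes overlapped between the groups in this class. Nr1d2 had 38.2, 49.7, 28.5 and 41.6 CPM in morphine pools and 48.8, 55.8, 30.6 and 43.9 CPM in mock pools (log2 -0.18, 95% interval -0.68 to 0.33). In each of the 4 same-numbered pairs of pools, which the labels give the same ages, Nr1d2 was lower in the morphine pool. The share of all genes with the same direction in all 4 pairs was not counted. With the number as a block in edgeR, Nr1d2 had a log2 difference of -0.17 and an adjusted p of 0.841. Nr1d1 had 28.0, 32.3, 16.1 and 11.3 CPM in morphine pools and 22.9, 19.5, 19.9 and 18.4 CPM in mock pools (log2 0.16, 95% interval -0.55 to 0.87). Both intervals include the sorted values of -0.33 and -0.38. Cry1 had the largest difference of the 9 members tested in the class, at 6.37, 14.9, 1.24 and 21.7 CPM in morphine pools and 24.4, 18.2, 18.4 and 16.7 CPM in mock pools, from 1 to 30 UMIs per pool (log2 -0.67, 95% interval -1.70 to 0.36). Per3, Dbp and Hlf were at log2 0.09, 0.01 and 0.23, each with an interval spanning 0.

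**Figure D2:**
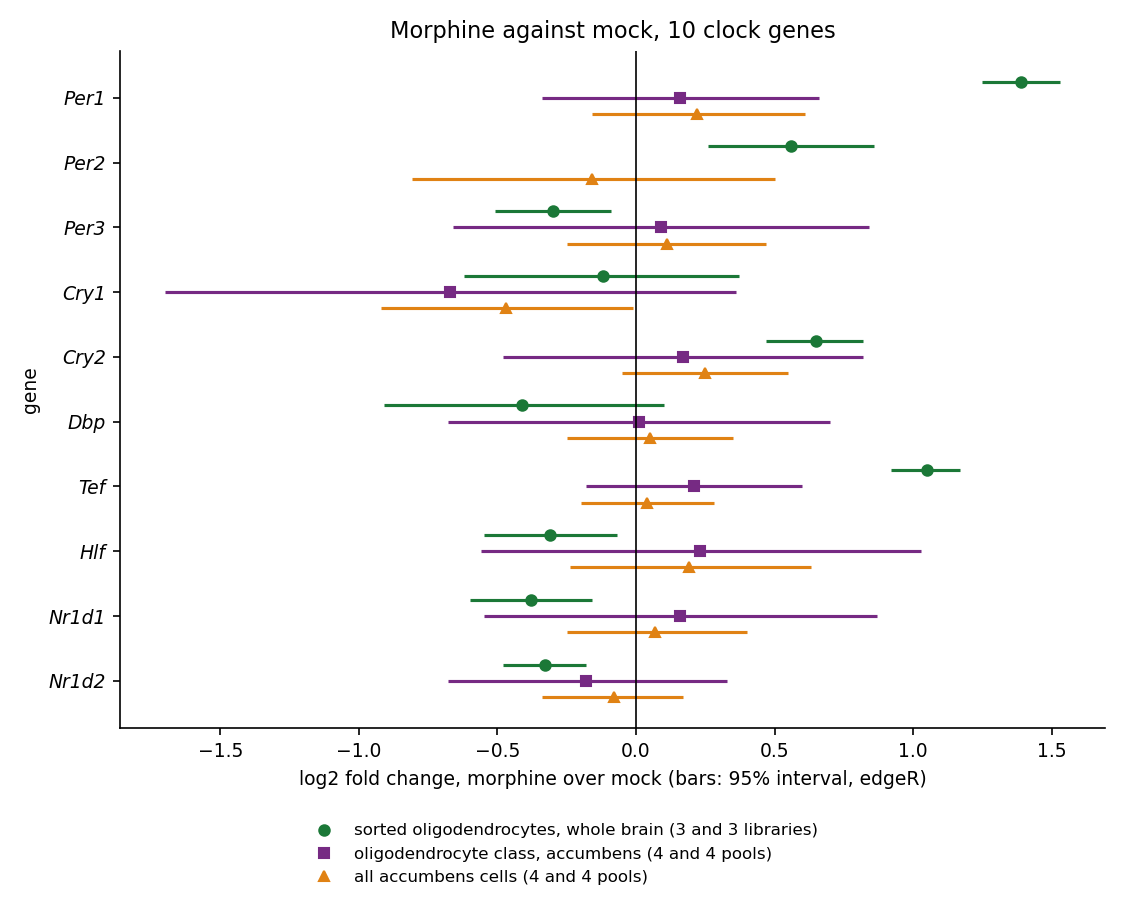
Log2 fold change of morphine over mock for the 10 genes in sorted oligodendrocytes, in the oligodendrocyte class of the accumbens and in all accumbens cells; bars are 95% intervals from edgeR, and Per2 was not tested in the oligodendrocyte class. Per1 at 1.39 and Tef at 1.05 in the sorted cells lie to the right of both accumbens intervals.

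Other genes were set beside the members in this class. Of the glucocorticoid-induced genes, chosen with earlier results of these data known, 8 of 8 were higher in the class after morphine. Their median log2 difference was 1.01 beside 0.017 for all genes tested, and 0 were called. Cdkn1a had log2 2.44 with an adjusted p of 0.405. Pdxk was at 255 CPM in morphine and 139 CPM in mock pools (log2 0.88, unadjusted p = 0.0021, adjusted p = 0.811). Usp2 was at 90.0 CPM in morphine and 56.5 CPM in mock pools (log2 0.64, unadjusted p = 0.00612, adjusted p = 0.905). None of these passed. Some markers of other cells also differed in this class, without a call. The 1 choroid plexus marker tested was at log2 5.44, and the 4 red blood cell markers tested had a median log2 difference of -2.47. All 6 shared medium spiny neuron markers were higher. The medians of all other marker lists tested lay between -0.28 and 0.85. The part of free RNA from other cells in the values of this class was not tested.

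With all accumbens cells of a pool summed, all 10 members were tested and none was called, where 0% of 15028 genes were called and 1.62% had an unadjusted p under 0.05; DESeq2 called no member either, and 4 genes in all. In such sums, fewer cells of a type and less RNA per cell cannot be told apart. Cry1, at the smallest p, had 17.2, 23.4, 17.9 and 31.0 CPM in morphine pools, against 34.0, 32.6, 24.1 and 34.1 CPM in mock pools. Mock pool 3 overlapped the morphine range (log2 -0.47, 95% interval -0.92 to -0.01, unadjusted p = 0.0447, adjusted p = 1.0). Per1 had 31.1, 40.6, 43.5 and 32.7 CPM in morphine pools and 31.7, 38.3, 33.5 and 23.4 CPM in mock pools (log2 0.22, 95% interval -0.16 to 0.61). The spread of Tef was narrow: it had 174, 170, 182 and 161 CPM in morphine pools and 170, 168, 148 and 182 CPM in mock pools (log2 0.04, 95% interval -0.20 to 0.28). The other 7 members had log2 differences between -0.16 and 0.25.

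**Figure D3:**
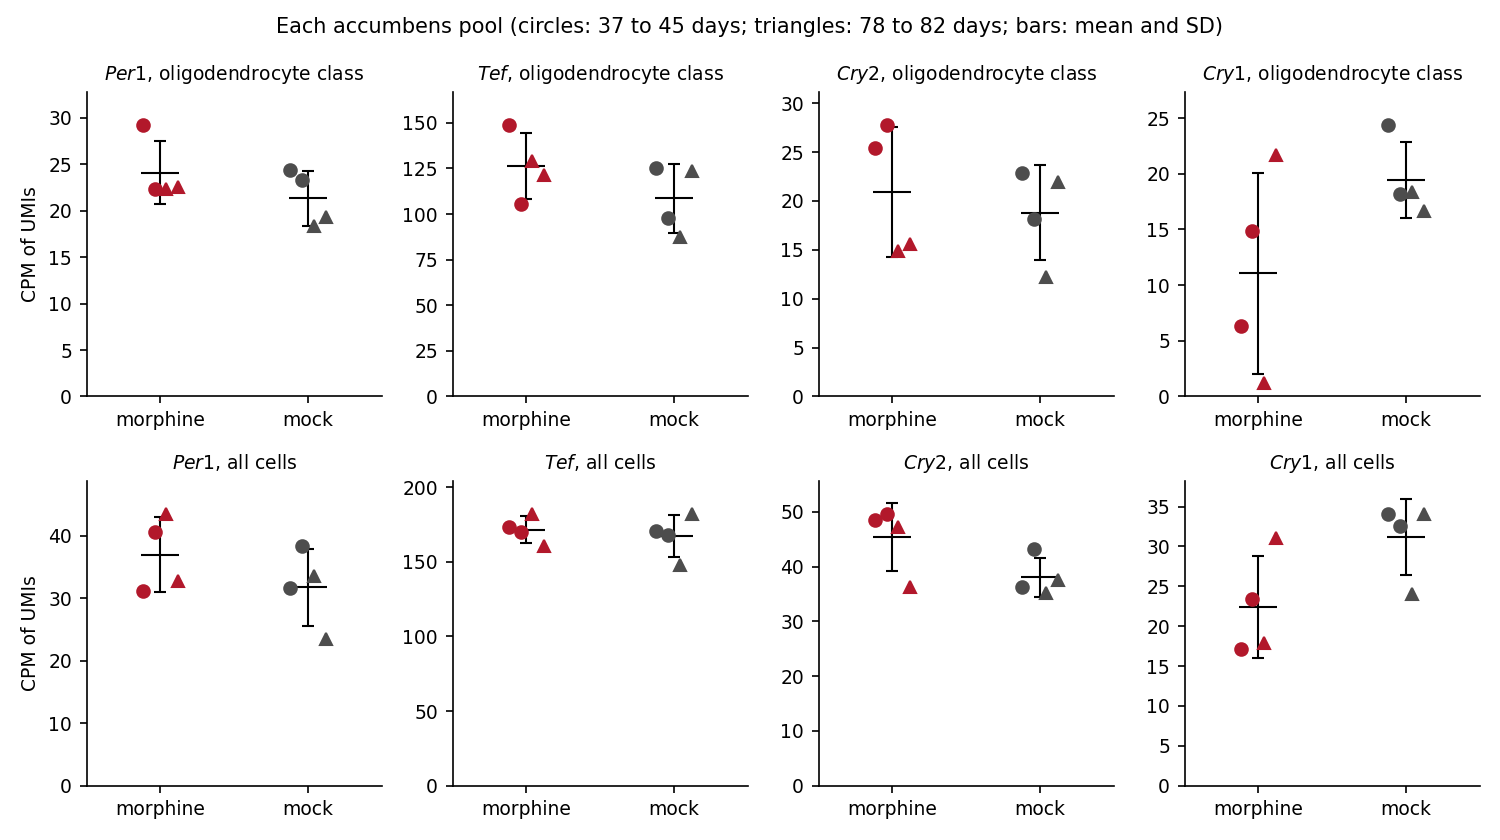
Level of Per1, Tef, Cry2 and Cry1 in each accumbens pool, in CPM of UMIs, in the oligodendrocyte class (top) and in all cells (bottom), morphine left of mock; circles are pools of 37 to 45 days, triangles pools of 78 to 82 days, bars the mean and SD of 4 pools. The groups overlap in every panel.

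Across 17 classes and clusters of the accumbens, 101 tests of a member in a class were possible and 0 were called; 3 (2.97%) had an unadjusted p under 0.05, where 1.01% to 4.88% of all genes did within a class other than oligodendrocytes. Among the 16 units other than oligodendrocytes, 15 had no gene called and the cluster led by Sirt2 and Mag had 0.0202% called. Leading genes of this cluster included the oligodendrocyte markers Mag, Opalin and Cnp. They also included Enpp6 and Gpr17 of the newly formed oligodendrocyte markers, the list on which it scored highest. Cry1 in D2 medium spiny neurons, the striatal projection neurons that carry the dopamine receptor DRD2, had the smallest p and was the only one of the 101 whose pools did not overlap. There, 1.86% of genes did not overlap and 2.65% had an unadjusted p under 0.05. Cry1 had 23.7, 27.0, 20.6 and 31.6 CPM in morphine pools, against 35.8, 41.6, 35.6 and 39.3 CPM in mock pools (log2 -0.56, SE 0.173, unadjusted p = 0.00594, adjusted p = 0.999). A cluster led by Pmepa1 and Adcy5, with Adora2a as its single D2 marker among its leading genes, made up 44.2% of this class in morphine pools and 38.9% in mock pools. Its cells had a median of 1217.5 UMIs, against 3590 in the cluster of this class led by Penk and Gpr6. It scored higher on the shared medium spiny neuron markers than on the D2 markers. Cry1 was lower after morphine in all 7 units in which it was tested, from -0.67 in oligodendrocytes to -0.01 in excitatory neurons. The units come from the same 8 pools, so these directions are not independent.

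In D1 medium spiny neurons, which carry the dopamine receptor DRD1, Per1 had 35.6, 50.4, 54.0 and 40.5 CPM in morphine pools, against 23.9, 45.9, 25.8 and 22.1 CPM in mock pools (log2 0.62, SE 0.234, unadjusted p = 0.0208, adjusted p = 1.0), where 2.7% of genes had an unadjusted p under 0.05. Mock pool 2 lay within the morphine range, and the other 3 mock pools were below every morphine pool. Per3, Cry2 and Cry1 were at log2 0.33, 0.35 and -0.49 in the same neurons, with unadjusted p of 0.0709, 0.0611 and 0.0576. Without mock pool 2 the log2 difference of Per1 was 0.94. A cluster led by Tac2 and Lypd1, with a single D1 marker among its leading genes, made up 38.9% of this class in morphine pools and 39.6% in mock pools.

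Dbp in interneurons, neurons with local connections, had 60.2, 127, 147 and 93.6 CPM in morphine pools and 103, 54.3, 67.7 and 71.8 CPM in mock pools (log2 0.66, SE 0.263, unadjusted p = 0.0199, adjusted p = 1.0), where 2.2% of genes had an unadjusted p under 0.05. Mock pool 1 was above 2 of the morphine pools. Of the 2 clusters of this class, the one led by Cox6a2 and Vip made up 59.7% in morphine and 67.8% in mock pools. The one led by Npy and Sst made up 40.3% in morphine and 32.2% in mock pools. Leading genes of the latter also included Chat and Slc5a7, genes of cholinergic neurons. With classes from marker scores per cell the log2 difference of Dbp there was 0.17, and with another clustering seed 0.25. Tef was tested in 14 units and lay between -0.66 in microglia and 0.22 in ependymal cells, with a median of 0.07. Cry2 was higher in 6 of 7 units, Hlf in 10 of 15, and Per2 was lower in 3 of 4. In perivascular macrophages none of the members passed the filter.

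**Figure D4:**
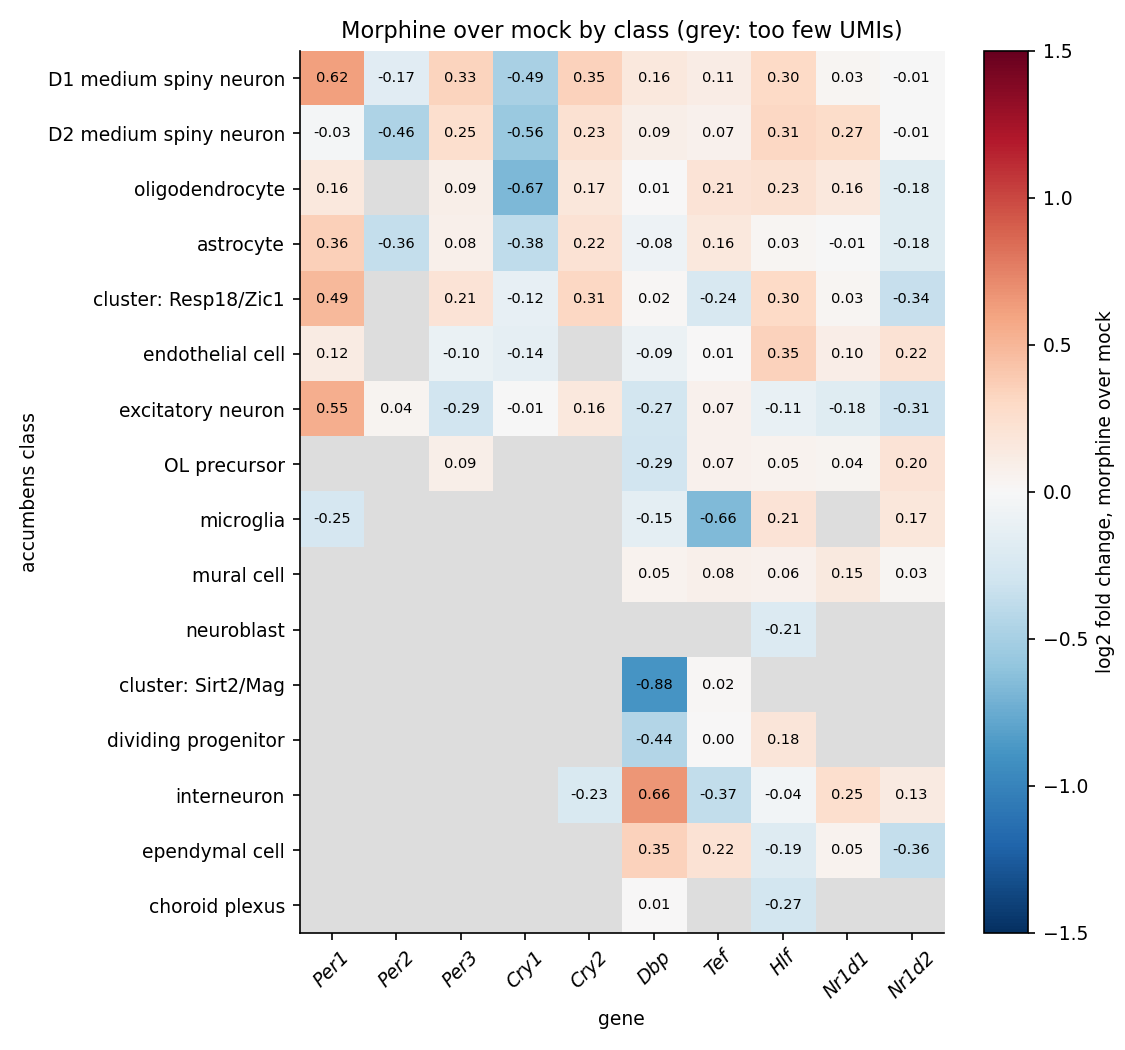
Log2 fold change of morphine over mock for each gene (columns) in each accumbens class (rows) with at least 1 member tested; grey cells did not pass the filter on low counts. The Cry1 column is negative in all 7 tested classes, and no cell of the map was called.

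Whether the response of the oligodendrocyte class differed from that of each of the other 16 units was tested in 142 member tests with the pool as a block. None was called, where 0.0241% of genes were called against ependymal cells, 0.056% against choroid plexus and 0% against the other 14 units; the smallest adjusted p was 0.998 and 3 tests had an unadjusted p under 0.05. These were Tef against microglia (log2 difference of responses 0.87, SE 0.349), and Dbp against the cluster led by Sirt2 and Mag (1.01, SE 0.429) and against ependymal cells (-0.71, SE 0.337).

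Each member's level varied widely between classes. The highest class mean was 2.87 (Cry1) to 22.1 (Hlf) times the lowest, yet for every member all 16 pairs of neighbours in the order of 17 classes overlapped in their pool ranges. The oligodendrocyte class was among the 4 lowest of the 17 for each of the 10 members. Hlf, for example, averaged 52.4 ± 21.7 CPM in oligodendrocytes (SD over 8 pools), and 687 ± 402 CPM in choroid plexus cells (SD over 7 pools); single pools reached from 19.8 to 77.0 CPM in oligodendrocytes and from 110.0 to 1103 CPM in choroid plexus.

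Dbp, Tef and Nr1d1 also had their highest mean in choroid plexus cells, the secretory epithelium of the ventricles, at 742 ± 295 CPM, 399 ± 290 CPM and 292 ± 158 CPM. Dbp followed in ependymal cells at 504 ± 124 CPM and in mural cells of the vessels at 408 ± 55.1 CPM. In oligodendrocytes these genes were at 65.4 ± 23.1 CPM (Dbp), 117 ± 19.6 CPM (Tef) and 21.0 ± 6.64 CPM (Nr1d1). The highest mean of Per1 was in perivascular macrophages, at 197 ± 78.6 CPM, and the next in microglia, at 92.6 ± 51.7 CPM, against 22.7 ± 3.32 CPM in oligodendrocytes. These are orders of means only: single pools of Per1 ran from 32.4 to 186 CPM in microglia and from 0 to 136 CPM in choroid plexus, and those of Tef from 172 to 981 CPM in choroid plexus and from 165 to 603 CPM in perivascular macrophages. The part of free RNA in these levels was not tested. Cry1 showed the flattest profile, from 36.2 ± 60.6 CPM in perivascular macrophages to 12.6 ± 6.72 CPM in microglia. Choroid plexus and perivascular macrophages are small classes of 153 and 132 cells, and their pools ranged widely.

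**Figure D5:**
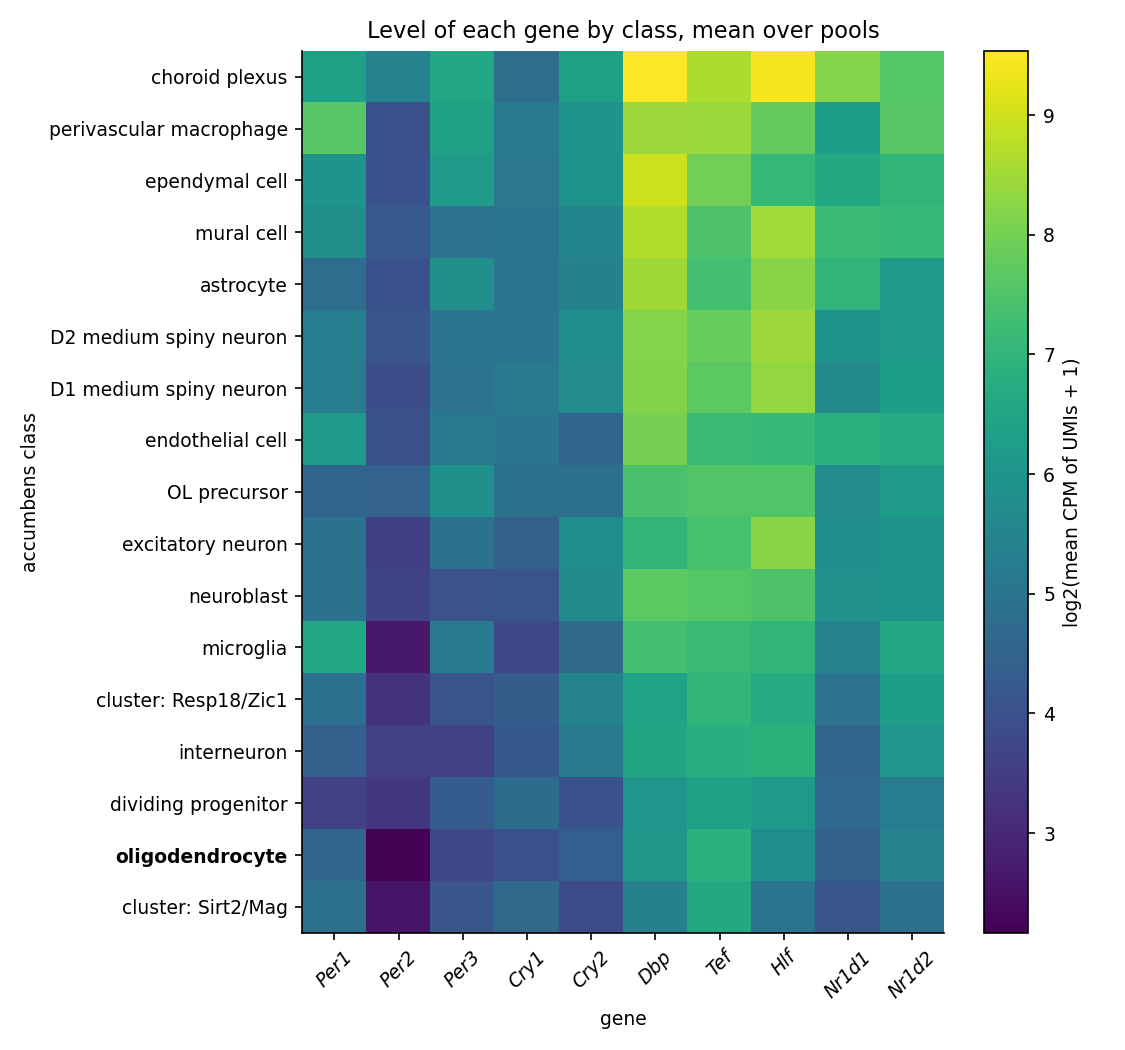
Mean level of each gene over pools in the 17 accumbens classes and clusters, as log2(CPM + 1), rows ordered by their mean over the 10 genes; the oligodendrocyte row is in bold. Choroid plexus is the top row and oligodendrocytes the second from the bottom.

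Over the class means (log2 CPM, 17 classes from the same pools), Pearson's r between members ran from -0.24 (Cry1 and Nr1d2) to 0.874 (Dbp and Nr1d1), with a median of 0.525 over 45 pairs. Dbp's closest genes among all genes with at least 10 CPM in some class were Nr1d1 and Nr1d2 (r = 0.874 and 0.865). For Tef these were Mtln and Dbp (0.862 and 0.848), for Nr1d1 they were Dbp and Yap1 (0.874 and 0.869), and for Hlf they were Itpr1 and Mmd (0.863 and 0.833). The period and cryptochrome genes each had other nearest genes, such as Serinc3 for Per1 (0.898) and Pitpnm2 for Cry2 (0.943).

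Older pools (78 to 82 days) were compared with younger ones (37 to 45 days) over both treatments. No member was called, where 0% of 15028 genes were called and 10.7% had an unadjusted p under 0.05; DESeq2 called 33 genes and the test without the filter on low counts 725, no member among them. Hlf had the smallest p of the members, at 274 ± 43.3 CPM in older and 209 ± 35.3 CPM in younger pools (SD, n = 4 each; log2 0.39, SE 0.158, unadjusted p = 0.0369, adjusted p = 0.456). Hlf averaged higher in the older pools in both treatment groups. The other 9 members lay between -0.19 and 0.13.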

How the data were processed

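Members and gene lists were chosen with earlier results of these data known. For 8 accumbens pools the authors deposited UMI counts of each gene in each cell, and for 6 sorted libraries read counts of each symbol, neither normalized. Their table of the sorted cells gives log2 fold changes and p-values, per the file headers. The submitters' processing notes name Trimmomatic 0.36, STAR 2.4.2a, HTSeq, DESeq2, DESeq and build mm10, without saying which served which data. Rows naming no gene took 69.5% to 74.3% of sorted reads and were left out.

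A barcode was kept if it had 300 genes or more and no more than 20% of its UMIs were mitochondrial (33218 of 36000), and 877 doublets called by Scrublet were removed, leaving 32341 cells with a median of 2152 UMIs. Scrublet called under 0.5% in mock pools 1 and 3 and morphine pools 1 and 2, where doublets remain. Pools shared 1 to 9 barcodes. Symbols found only in replicate 1 pools (6120, with 0.777% of their UMIs) were left out, and 1221 symbols were renamed. Clustering in scanpy 1.11.5 (2000 variable genes, 30 components, Leiden resolution 1) gave 25 clusters; coordinates were rounded to 0.01, because earlier clusterings without this step differed between computing environments; it was added after their results had been seen. Markers named 16 classes of cells like those the names give, of which 15 were tested together with 2 unnamed clusters (6.7% of cells). Units had at least 10 cells in at least 3 pools per group; excitatory neurons had 3 morphine pools, and ependymal, choroid plexus and perivascular macrophage classes had 3 mock pools.

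UMIs were summed per pool and class. The test was edgeR 4.0.16's quasi-likelihood F test on these sums and on the read counts (TMM, filterByExpr, Benjamini-Hochberg over all genes tested). DESeq2 1.42.0, other scaling, no filter, no mitochondrial genes, age as a covariate, the replicate block, leaving out each library, and classes from marker scores were alternatives. Intervals are approximate and cover counting and replicate error only. Sorted reads, unlike the accumbens UMIs, carry no molecular identifiers. The tests were also run on simulated counts drawn from each gene's fitted spread, without age or batch differences. How they behave under such differences was not simulated. The 10 members and, per list, up to 3 genes of smallest p in the sorted cells are named; Por, Dtx4, Arntl, Csnk1d and Csnk1e, and genes overlapping a member, were named after their values were seen.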

Additional observations from a re-analysis of the deposited data

Results flagged for a closer look

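Of 46 groups of 4 pools looked at, 3 had a pool standing apart by Dixon's criterion, which chance meets in about 1 in 20 groups. In the oligodendrocyte class, Per1 in morphine pool 1 was at 29.3 CPM, against 22.3 to 22.5 CPM in the other morphine pools. In all cells, Cry1 in mock pool 3 was at 24.1 CPM, against 32.6 to 34.1 CPM in the other mock pools. In D1 medium spiny neurons, Per1 in mock pool 2 was at 45.9 CPM, against 22.1 to 25.8 CPM in the other mock pools.

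Among 23 combinations of member and class compared, a pair had opposite directions in older and younger pools, without overlap between the groups at either age. How often chance meets this rule was not computed. In edgeR fits to each age alone, neither gene was called at either age. Whether the response differed between the ages was not tested. Per2 in all cells had 16.9 and 10.3 CPM in older morphine pools, against 8.93 and 9.89 CPM in older mock pools, a log2 ratio of means of 0.53. In younger pools it had 6.90 and 12.01 CPM with morphine, against 16.4 and 16.3 CPM with mock, a log2 ratio of -0.79. Nr1d1 in the oligodendrocyte class had 16.1 and 11.3 CPM in older morphine pools, against 19.9 and 18.4 CPM in older mock pools, a log2 ratio of -0.49. In younger pools it had 28.0 and 32.3 CPM with morphine, against 22.9 and 19.5 CPM with mock, a log2 ratio of 0.51.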

How the results depend on the processing

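In the sorted cells, DESeq2, other size factors, no filter on low counts and no mitochondrial genes each left 5 or 6 members called, and leaving out 1 library left 5 to 7. Per1, Tef, Cry2 and Nr1d2 were called under each of these. With the replicate block 6 were called, the same number as without it. Same-numbered sorted libraries correlated at 0.0166, -0.126 and -0.0293, and the 4 same-numbered pairs of pools at 0.0125 to 0.476 in the oligodendrocyte class and at -0.0771 to 0.69 in all cells; since not every pair passed 0.1, and the labels name no shared litter, batch or day, the numbers were not taken to pair the samples, although same-numbered pools have the same ages, and not every sample correlated best with its own number. In the accumbens, 0 members were called under any alternative run, for the oligodendrocyte class, the other classes, all cells, older against younger pools and the difference of responses, and leaving out 1 pool gave 0 to 0 in each, except that the difference of responses was not rerun without single pools. The replicate block changed no member's call there, but over all genes of the oligodendrocyte class it gave 30 calls in place of 0. Deposited barcodes also went with the number in both groups, at 3000 for pools 1 and 3 and 6000 for pools 2 and 4. The 6120 symbols left out occurred only in pools numbered 1. The labels do not say whether same-numbered pools were processed together.

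Class values depend on the clustering. Earlier clusterings, without rounded coordinates, were replaced after their results had been seen because they could not be repeated exactly. No member was called in them either, but which uncalled tests had an unadjusted p under 0.05 differed: Cry1 in D2 neurons, Per1 in D1 neurons and Dbp in interneurons were below it each time, while others, such as Per3 and Cry2 in D1 neurons, were below it in one of them and not here. Another seed of the same method, chosen after seeing the data, gave 26 clusters in place of 25 and 4059 oligodendrocytes, 3835 of them shared with the 3853 described; Per1 was then at log2 0.03, Tef at 0.16, Cry2 at 0.01 and Dbp at -0.07 in that class.

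Directions of some uncalled members turned, and the cause was not tested. In the oligodendrocyte class, log2 differences turned to -0.02 for Per3 in the younger pools alone, and in the older pools alone to -0.24 for Cry2, -0.12 for Dbp, -0.35 for Hlf and -0.52 for Nr1d1. With classes from marker scores Cry2 was at -0.05 and Dbp at -0.22. Dbp was also at -0.0036 with DESeq2 and -0.01 with age as a covariate. In all cells, Per2 was at 0.50 in the older pools alone, and Dbp and Nr1d1 were at -0.14 and -0.04 in the younger pools alone. Dbp in older against younger pools was at -0.0018 without the filter.

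Leaving out 1 library turned the direction of Cry1 in the sorted cells (-0.27 to 0.05). Leaving out 1 pool did so in the oligodendrocyte class for Per3 (-0.14 to 0.22), Cry2 (-0.04 to 0.26), Dbp (-0.24 to 0.18) and Nr1d1 (-0.15 to 0.36). It did so in all cells for Per2 (-0.38 to 0.01), Dbp (-0.06 to 0.10), Tef (-0.01 to 0.08) and Nr1d1 (-0.06 to 0.14). In older against younger pools it did so for Per1 (-0.24 to 0.02), Cry1 (-0.19 to 0.16), Dbp (-0.12 to 0.06), Tef (-0.08 to 0.03), Nr1d1 (-0.06 to 0.17) and Nr1d2 (-0.09 to 0.05).

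Per accumbens pool, the oligodendrocyte class held 12 to 45 UMIs of Per1 and 1 to 30 of Cry1. The 95% intervals there include the Cry2, Nr1d1 and Nr1d2 differences of the sorted cells, and Per2 could not be tested.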
